A study of Mus musculus with 56 samples.

Results

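Ldhc, Gapdhs, Pgk2, Eno4 and Pdha2 are the germ cell forms of enzymes that carry glucose carbon through glycolysis to lactate or acetyl-CoA, and Ldha, Gapdh, Pgk1, Eno1 and Pdha1 are the somatic forms of the same steps. These 10 genes, 5 pairs in all, were taken as a fixed list by symbol and were all found by Ensembl identifier among the 53379 genes of the count table. Bulk RNA-seq had been performed on male C57BL/6 mice, in the testis, in the efferent ductules that drain it, in 4 parts of the epididymis (initial segment, caput, corpus, cauda) and in the vas deferens, at an age of 3 or 21 months, with 4 libraries for each region and age and 56 in all. No altered allele and no treatment is named for either age. Per the study's methods the mice came from more than one animal centre, and how these were divided between the ages is not given in the sources used here. Per the study's methods, all 7 regions of an age were dissected from the same 4 mice, but the replicate numbers are not stated to mark the mouse, and the libraries were therefore compared as separate samples. Total counts per library ranged from 11125279 to 20561967 with a median of 16384000. All 10 genes passed the minimum of 10 counts in every comparison.

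Glycolysis splits glucose to pyruvate, which lactate dehydrogenase reduces to lactate and the pyruvate dehydrogenase complex turns into acetyl-CoA. Mouse spermatogenic cells are known to replace several somatic enzymes of this route by forms from separate genes, some of which are anchored to the fibrous sheath of the sperm tail, where glycolysis supplies ATP for motility. Pgk1 and Pdha1 lie on the X chromosome, which is silenced in spermatocytes, while Pgk2 and Pdha2 are autosomal copies that arose by retroposition.

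In the GRCm38 annotation the 5 germ cell genes lie on autosomes. Ldhc (ENSMUSG00000030851), the sperm lactate dehydrogenase subunit, spans chr7:46861203-46878142 on the plus strand with 8 exons, next to Ldha (ENSMUSG00000063229) at chr7:46841475-46855627, also with 8 exons. Gapdhs (ENSMUSG00000061099), the spermatogenic glyceraldehyde-3-phosphate dehydrogenase, spans chr7:30729775-30743681 on the minus strand with 11 exons. Pgk2 (ENSMUSG00000031233), a phosphoglycerate kinase, at chr17:40207015-40208640, and Pdha2 (ENSMUSG00000047674), the E1 alpha subunit of pyruvate dehydrogenase, at chr3:141210004-141212355, each consist of 1 exon on the minus strand. Eno4 (ENSMUSG00000048029), the sperm enolase, spans chr19:58943425-58971421 on the plus strand with 14 exons. The somatic genes Gapdh (ENSMUSG00000057666, chr6:125161715-125166467), Pgk1 (ENSMUSG00000062070, chrX:106187100-106203699), Eno1 (ENSMUSG00000063524, chr4:150236721-150248879) and Pdha1 (ENSMUSG00000031299, chrX:160122209-160138413) have 7, 11, 12 and 11 exons.

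The 250 bases before the RefSeq start site of each germ cell gene are shown because these genes share a testis pattern below and because Eno4 departs from it. The sequences and start sites are from RefSeq on GRCm38.p6, 5′ to 3′ on the strand of the gene. RefSeq starts differ from the gene spans given above: the Ldhc and Pgk2 windows run 60 and 31 bases into those spans, and the Gapdhs window lies inside its span, before the start of a shorter transcript. Capitals mark the letters that matched, on either strand, any of 4 motifs searched, the TATA box (TATAAA), the core of the GC box that SP factors bind (GGGCGG), a cAMP response element core (TGACGT) and the first part of the X box that RFX factors bind (GTTGCC). No marked matches overlap. The windows are chr7:46861013-46861262 for Ldhc, chr7:30739408-30739657 for Gapdhs, chr17:40208610-40208859 for Pgk2, chr19:58943175-58943424 for Eno4 and chr3:141212356-141212605 for Pdha2.
Ldhc: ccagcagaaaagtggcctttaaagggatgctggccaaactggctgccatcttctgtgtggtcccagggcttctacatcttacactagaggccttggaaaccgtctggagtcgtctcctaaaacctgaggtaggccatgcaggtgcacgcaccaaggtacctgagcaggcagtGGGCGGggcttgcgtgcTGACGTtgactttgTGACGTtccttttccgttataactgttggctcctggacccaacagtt
Gapdhs: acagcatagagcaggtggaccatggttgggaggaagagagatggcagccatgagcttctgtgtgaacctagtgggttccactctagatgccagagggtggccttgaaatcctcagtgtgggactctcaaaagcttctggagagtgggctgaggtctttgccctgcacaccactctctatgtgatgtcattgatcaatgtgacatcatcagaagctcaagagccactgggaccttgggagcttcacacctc
Pgk2: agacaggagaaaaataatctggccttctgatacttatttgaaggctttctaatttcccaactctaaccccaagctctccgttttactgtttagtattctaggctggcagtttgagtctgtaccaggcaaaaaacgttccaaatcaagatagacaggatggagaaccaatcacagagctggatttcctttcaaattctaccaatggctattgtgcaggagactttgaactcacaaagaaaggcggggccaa
Eno4: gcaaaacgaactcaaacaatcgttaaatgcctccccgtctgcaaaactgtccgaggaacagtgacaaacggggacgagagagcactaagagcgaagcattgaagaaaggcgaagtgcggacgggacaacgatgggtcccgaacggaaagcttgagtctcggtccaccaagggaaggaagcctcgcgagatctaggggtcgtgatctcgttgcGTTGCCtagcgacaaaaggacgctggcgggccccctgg
Pdha2: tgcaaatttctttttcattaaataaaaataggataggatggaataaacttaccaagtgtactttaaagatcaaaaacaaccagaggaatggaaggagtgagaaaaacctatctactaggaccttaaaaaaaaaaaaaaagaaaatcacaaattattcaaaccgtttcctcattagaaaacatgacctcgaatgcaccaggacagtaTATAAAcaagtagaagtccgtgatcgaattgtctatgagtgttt
Ldhc held GGGCGG beginning 78 bases before its start and TGACGT at 61 and 47 bases. Eno4 held GTTGCC at 38 bases and Pdha2 held TATAAA at 44 bases. None of the 4 motifs was found in the windows of Gapdhs and Pgk2, which says only that these letters are not in them. Of 32851 promoters of the same length, 32.7% held the GC box core, 6.47% the cAMP response element core, 10.4% the X box letters and 12.4% the TATA box. CpG dinucleotides numbered 22 in the Eno4 window, 8 in Ldhc, 4 in Pdha2, 3 in Pgk2 and 0 in Gapdhs, against a median of 6 over all promoters.

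Coding sequences were identical over 73.75% of aligned bases for Ldhc and Ldha, 72.42% for Gapdhs and Gapdh, 79.27% for Pgk2 and Pgk1, 60.87% for Eno4 and Eno1 and 75.62% for Pdha2 and Pdha1. The somatic forms also have pseudogene copies. Windows of 150 bases, the read length, were matched with up to 5 mismatches to all other annotated transcripts, and no window of the 5 germ cell transcripts had a match. Such windows made up 84.66% of Eno1, 76.63% of Gapdh, 66.05% of Pgk1, 38.9% of Ldha and 0.593% of Pdha1. How reads with several matches were counted is not given in the sources used here, so the counts of Eno1, Gapdh, Pgk1 and Ldha are uncertain. Gapdhs, Eno4, Gapdh and Pdha1 overlap genes on the opposite strand (Tmem147os and Gm26935, Hspa12a, Iffo1, and Map3k15), and the strand setting of the counting is likewise not given.

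Levels are CPM, the counts of a gene relative to the library total, scaled by TMM factors over the 56 libraries, and levels of different genes are compared per kb of the principal transcript. At 3 months the order of the germ cell forms in the testis was Ldhc (1808 ± 31.4 CPM per kb, SD, n = 4), Gapdhs (841 ± 36.5), Pgk2 (413 ± 13.7), Pdha2 (67.5 ± 3.26) and Eno4 (25.6 ± 0.806). Of the somatic forms, Ldha (331 ± 9.11 CPM per kb) and Eno1 (101 ± 6.20) were abundant in the testis, while Gapdh (3.53 ± 0.281), Pdha1 (2.01 ± 0.203) and Pgk1 (1.41 ± 0.205) were at a few CPM per kb.

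**Figure D1:**
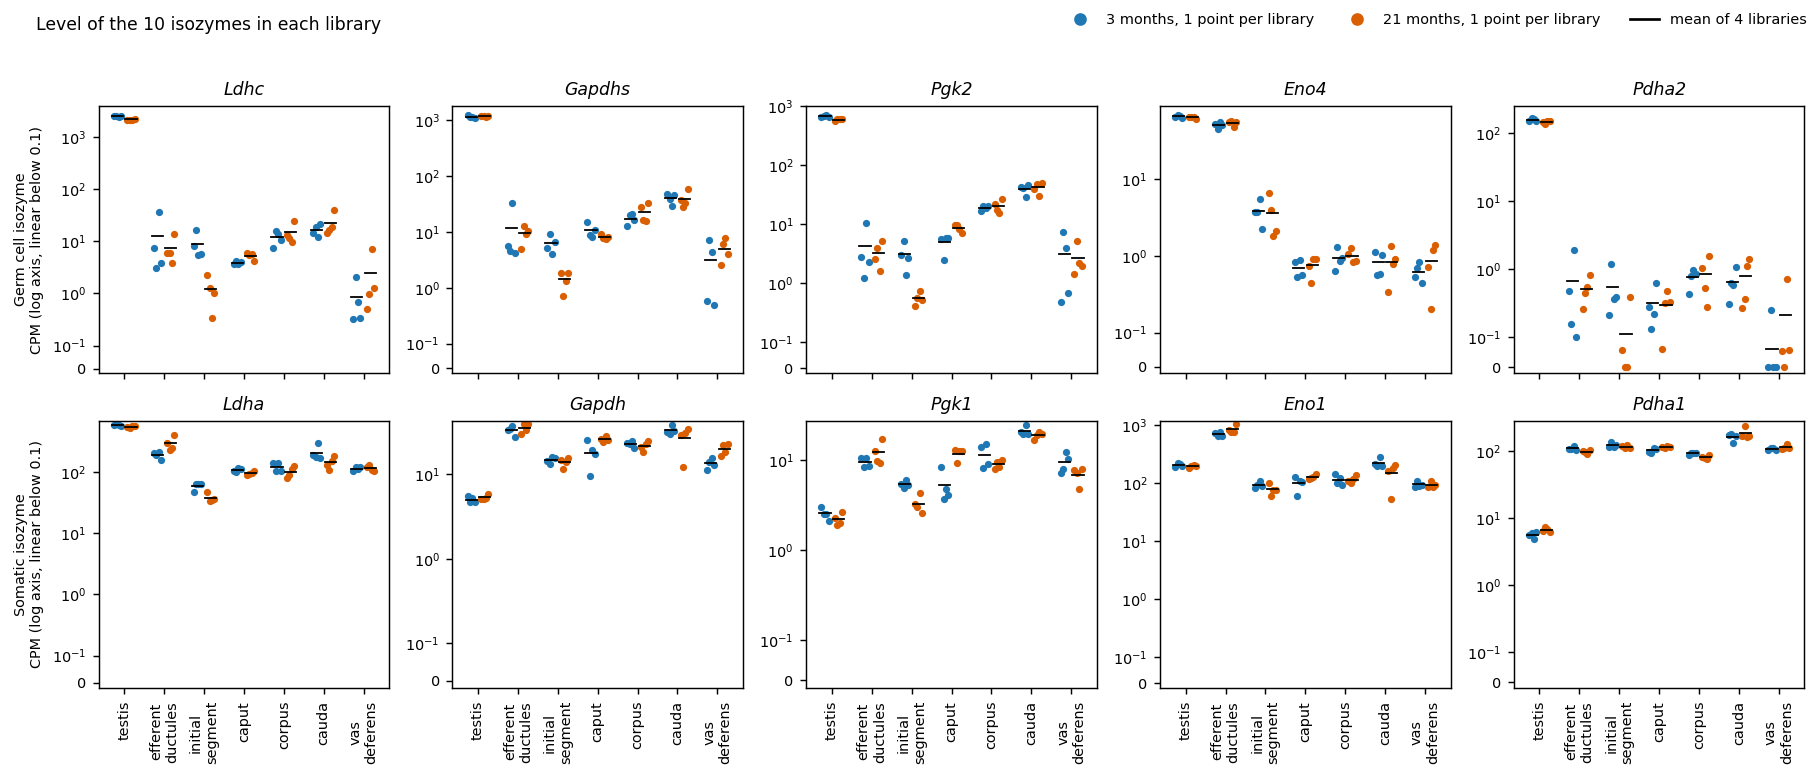
Level of the 10 isozymes in each library, in CPM on an axis that is logarithmic above 0.1 and linear below, by region and age (blue, 3 months, orange, 21 months, 1 point per library, bar at the mean of 4). Ldhc, Gapdhs, Pgk2 and Pdha2 stood far above all ducts in the testis, and Eno4 was high in the testis and the efferent ductules (65.8 and 50.9 CPM at 3 months). Pdha1, Pgk1 and Gapdh had their lowest means in the testis, Gapdh only as plotted here, without its pseudogene copies.

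The testis was compared with the mean of the other 6 regions on the log scale, at each age on its own, with edgeR's quasi-likelihood test and Benjamini-Hochberg adjustment over all genes. All 5 germ cell forms were higher in the testis at both ages. Of the 10 genes, 7 were higher and 3 lower at 3 months, where 44.1% of all genes tested were called higher and 33.8% lower, and 6 were higher and 3 lower at 21 months, with 43.1% and 34.4% of all genes. Among those higher at 3 months was Eno1, whose testis mean lay below the mean of the other regions in CPM, and among those lower was Gapdh, whose direction turned with pseudogene copies counted (both described below). The testis thus differed in most genes, and the size of the differences says more than their number: the median log2 difference was 6.63 for the germ cell forms and −1.96 for the somatic forms at 3 months, against 0.13 for all genes. With pseudogene copies added the median of the somatic forms was 0.40, so its sign is not settled.

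Ldhc was measured at 2455, 2507, 2427 and 2518 CPM in the 3-month testes and at 2087, 2149, 2139 and 2232 CPM in the 21-month testes. In the other regions the 48 libraries ranged from 0.317 to 39.2 CPM, so no library came near the testis. The 3-month testis mean was 270-fold the mean of the other regions (log2 8.51 ± 0.26, SE, edgeR adjusted p = 5.33e-23). Its partner Ldha, the muscle-type lactate dehydrogenase subunit, was itself highest in the testis, with 587, 600, 591 and 563 CPM at 3 months and 536, 523, 556 and 560 CPM at 21 months. The other regions held 33.6 to 406 CPM of Ldha, all below the testis. The 3-month testis mean was 4.39-fold that of the other regions (log2 2.14 ± 0.10, adjusted p = 8.13e-19).

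Gapdhs was measured at 1221, 1151, 1122 and 1110 CPM in the 3-month testes and at 1170, 1160, 1143 and 1201 CPM at 21 months, against 0.487 to 59.6 CPM in the other regions. The ages overlapped in the testis, and all testes stood above all ducts, by 76.9-fold on the means at 3 months (log2 6.63 ± 0.27, edgeR adjusted p = 4.39e-20). Counts assigned to Gapdh itself ran the other way, with 5.50, 4.73, 5.18 and 4.65 CPM in the 3-month testes against 9.64 to 38.7 CPM in the 3-month ducts. The difference was −2.18 ± 0.15 on the log2 scale (adjusted p = 2.01e-14).

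The direction for Gapdh depended on whether its pseudogene copies were counted with it. With the counts of 136 annotated copies added, the same comparison gave +1.10 at 3 months (edgeR adjusted p = 2.7e-13) and +0.90 at 21 months (adjusted p = 1.64e-08). Gm6981, an annotated Gapdh pseudogene, stood at 76.9 ± 2.43 CPM in the 3-month testis and at no more than 2.12 CPM on average in any other group of ducts. Without Gm6981 but with the other copies, Gapdh was lower in the testis again, by −0.29 at 3 months (adjusted p = 0.0075) and −0.44 at 21 months (adjusted p = 0.00239), on the log2 scale. The direction of Gapdh between the testis and the ducts is therefore not settled by these counts.

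**Figure D2:**
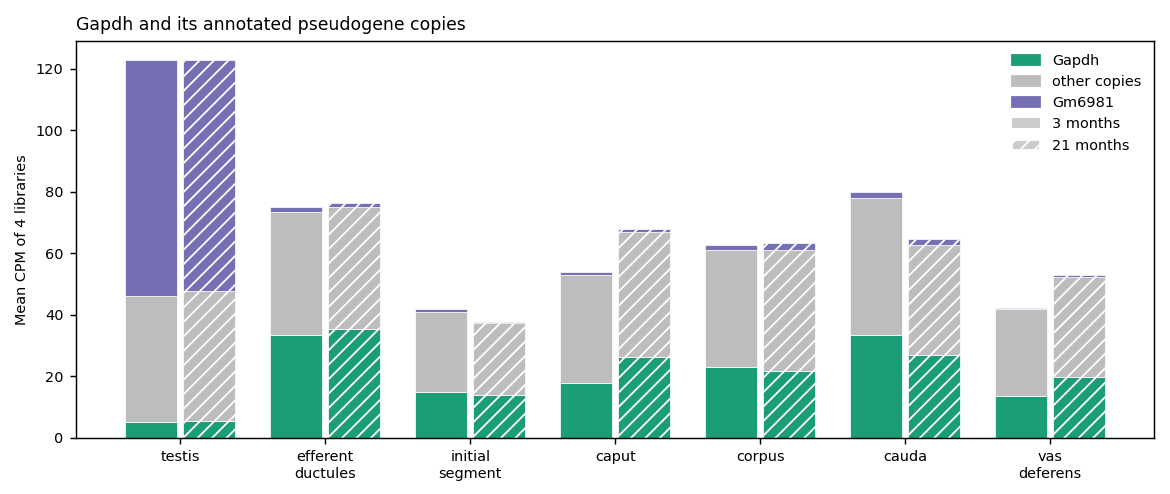
Mean CPM of 4 libraries for Gapdh (green), Gm6981 (purple) and the other annotated Gapdh copies (grey), stacked by region, plain at 3 months and hatched at 21 months. Gm6981 made up 76.9 of the 123 CPM in the 3-month testis and at most 2.12 CPM in the ducts, where Gapdh itself ranged from 13.4 to 35.2 CPM.

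Pgk2 was measured at 649, 682, 698 and 659 CPM in the 3-month testes and at 547, 604, 600 and 601 CPM in the 21-month testes. The other regions ranged from 0.411 to 50.3 CPM, and the highest of them were cauda libraries. The 3-month testis mean was 54.9-fold that of the other regions (log2 6.45 ± 0.24, edgeR adjusted p = 4.36e-21). Pgk1, the X-linked somatic kinase, stood at 3.03, 2.55, 2.56 and 2.12 CPM in the 3-month testes, below every 3-month duct library (3.75 to 24.4 CPM). At 21 months the testes (1.93 to 2.65 CPM) overlapped the initial segment (2.58 to 4.35 CPM). The log2 difference was −1.96 ± 0.19 at 3 months (adjusted p = 1.63e-10) and −2.19 ± 0.18 at 21 months (adjusted p = 2.96e-12).

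Pdha2 was measured at 154, 167, 163 and 151 CPM in the 3-month testes and at 149, 138, 154 and 153 CPM at 21 months. Outside the testis it never exceeded 1.92 CPM, and 6 of the 48 libraries had no count. The 3-month testis mean was 318-fold that of the other regions, the highest ratio among the 10 genes (log2 8.56 ± 0.20, edgeR adjusted p = 1.08e-25). Pdha1 was lowest in the testis, with 5.73, 6.09, 4.91 and 6.17 CPM in the 3-month testes and 75.3 to 236 CPM in all other libraries of either age. Its testis mean was 0.0493 of the mean of the other regions (log2 −4.42 ± 0.09, adjusted p = 2.12e-27). By transcript windows this pair was the least touched by shared sequence. In the testis libraries, though, the annotated copy held a median of 9.55% of the counts of Pdha1 and its copy together. With the copy added the 3-month difference was −4.14 (edgeR adjusted p = 1.56e-25).

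Eno4 was measured at 65.3, 67.9, 66.8 and 63.2 CPM in the 3-month testes and at 64.5, 65.1, 65.7 and 61.7 CPM at 21 months. The efferent ductules were close behind, with 52.0, 44.6, 56.6 and 50.3 CPM at 3 months and 56.5, 58.1, 48.1 and 56.1 CPM at 21 months, or 77.3% and 85.1% of the testis mean. No efferent ductule library reached the lowest testis library. In edgeR the log2 difference between these regions was 0.32 ± 0.15 at 3 months (adjusted p = 0.0559) and 0.07 ± 0.25 at 21 months (adjusted p = 0.816), and the 3-month call depended on the processing. With DESeq2 size factors the value was 0.73 (adjusted p = 7.45e-05) and with library size alone 0.02 (adjusted p = 0.963). The difference was also called with edgeR's expression filter (0.46), without a count filter (0.44), with pseudogene copies added (0.36), without replicate number 1 (0.47), without efferent ductule replicate 3 (0.42) and without caput replicate 2 (0.44), at edgeR adjusted p of 0.00705 to 0.0435. With the replicate number as a block it was just called (0.32, edgeR adjusted p = 0.0498). Against the mean of all other regions on the log scale Eno4 was higher in the 3-month testis (log2 4.92 ± 0.11, edgeR adjusted p = 1.05e-26). On the plain CPM scale its testis mean was 6.83-fold the mean of the other regions, which the efferent ductules raise.

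The other forms did not share this second site. In the 3-month efferent ductules Pgk2 reached 0.62%, Ldhc 0.518%, Gapdhs 1.03% and Pdha2 0.418% of their testis means. Without replicate 3, a library described below, these means were 0.31%, 0.194%, 0.418% and 0.155%. The next region for Eno4 was the initial segment, with 3.79, 3.77, 5.47 and 2.26 CPM at 3 months and 6.63, 3.95, 1.80 and 2.13 CPM at 21 months. All other libraries were between 0.202 and 1.37 CPM. At both ages the initial segment library with the most Eno4 also had the highest sum of 5 efferent ductule markers (Foxj1, Esr1, Aqp1, Slc9a3 and Lrp2), 381 CPM at 3 months and 452 CPM at 21 months, where the efferent ductules themselves had 3580 to 4703 CPM. These markers were not restricted to the efferent ductules, since the cauda, with little Eno4, had sums of 1173 to 2223 CPM. The part of these markers in the Eno4 level of the initial segment was not tested.

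Eno1, the ubiquitous enolase, was highest in the efferent ductules, with 727, 638, 746 and 642 CPM at 3 months and 804, 742, 767 and 1028 CPM at 21 months. The testis had 189, 217, 211 and 198 CPM at 3 months and 182 to 208 CPM at 21 months, well below all of these (log2 testis minus efferent ductules −1.80 at 3 months, edgeR adjusted p = 1.26e-11). Against the other 6 regions together the call for Eno1 was weak, at 0.27 ± 0.11 on the log2 scale at 3 months (adjusted p = 0.0304) and 0.20 ± 0.17 at 21 months (adjusted p = 0.268). On the plain CPM scale its testis mean was 0.935 of the mean of the other regions at 3 months and 0.847 at 21 months. With library size alone the 3-month call was lost (adjusted p = 0.147).

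The balance within each pair was then read in each library, as the share of the germ cell form in the summed counts per kb of its pair, which does not depend on how libraries are scaled. In the 3-month testis the median share was 99.7% for Pgk2, 99.6% for Gapdhs, 97.0% for Pdha2, 84.3% for Ldhc and 20.04% for Eno4. At 21 months the medians were 99.7%, 99.6%, 96.4%, 83.5% and 20.2%. With pseudogene copies added to Gapdh the share of Gapdhs was 90.6% at 3 months and 90.8% at 21 months, below that of Pdha2. The testis thus held mostly the germ cell form in 4 of the 5 pairs, while the enolase pair was mainly Eno1.

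Each testis was set against each other region at each age by the log2 ratio of germ cell to somatic form, with 0.5 counts added. In all 60 comparisons the 4 testes stood above the 4 libraries of the other region, which gave an exact permutation p = 0.0286 (two-sided), the smallest that 4 against 4 libraries allow. The differences at 3 months for Ldhc over Ldha ran from 4.97 against the initial segment to 9.50 against the vas deferens. Adding the annotated pseudogene copies to the somatic form lowered the mean log2 ratio of Gapdhs to Gapdh in the 3-month testis from 7.89 to 3.28. Lengths from all exons of a gene instead of its principal transcript would raise the log2 ratios by 0.30 (Pgk2) to 1.41 (Eno4), by the same amount in every library.

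Along the ducts the share of the germ cell form was far from uniform. In the cauda at 3 months the medians were 69.6% for Pgk2 (range 56.9 to 72.2%) and 58.5% for Gapdhs (43.3 to 61.0%), but 10.6% for Ldhc, 0.505% for Pdha2 and 0.329% for Eno4. In the corpus Pgk2 was at 64.4% and Gapdhs at 45.4%. In the vas deferens the shares were lower and more scattered, 7.11 to 50.03% for Pgk2 and 3.96 to 34.9% for Gapdhs. The high shares of Pgk2 and Gapdhs rest on partners whose counts are uncertain. With the pseudogene copies added to Gapdh, the somatic form was the larger in both regions at 3 months, with a mean log2 ratio of Gapdhs to Gapdh of −0.95 ± 0.42 (SD, n = 4) in the cauda and −1.82 ± 0.38 in the corpus, while the ratio of Pgk2 to Pgk1 stayed above 0 (0.98 ± 0.42 and 0.83 ± 0.54).

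**Figure D3:**
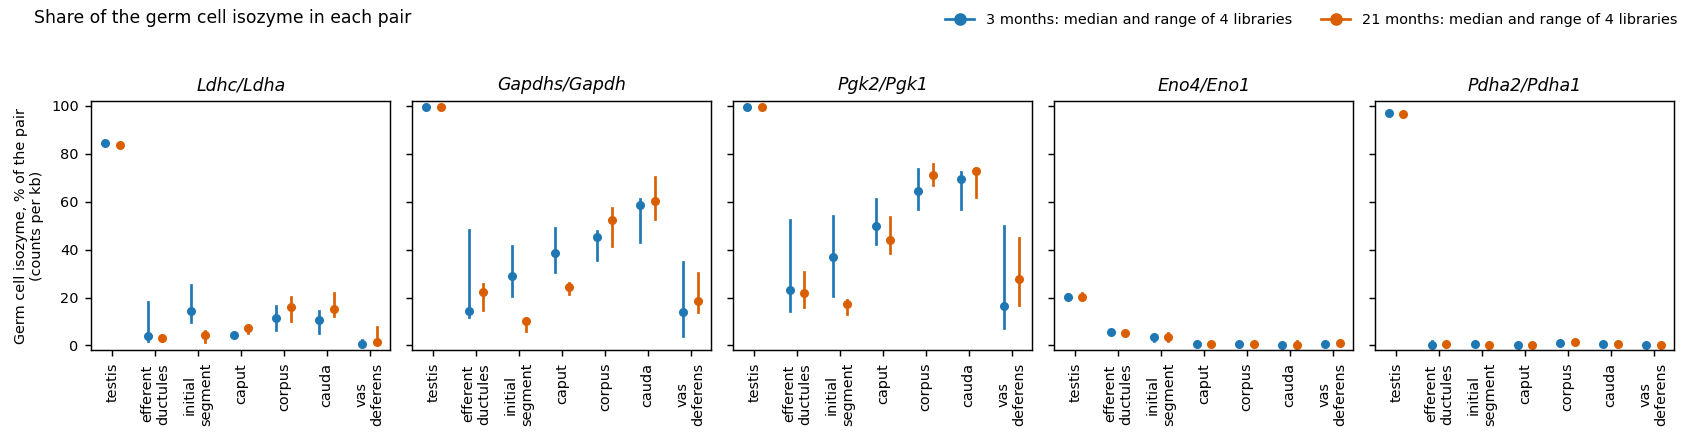
Share of the germ cell form in the summed counts per kb of its pair, in percent, by region and age (point, median, line, range of 4 libraries). The testis was at 99.7% for Pgk2, 99.6% for Gapdhs, 97.0% for Pdha2, 84.3% for Ldhc and 20.04% for Eno4 at 3 months, and no duct library had a higher Ldhc share than 25.1%.

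Among the caput, corpus and cauda, the means of Pgk2, Gapdhs and Ldhc were lowest in the caput and highest in the cauda. At 3 months Pgk2 had means of 4.90, 18.8 and 39.4 CPM in the caput, corpus and cauda, and Gapdhs 10.8, 17.2 and 40.5 CPM. Ldhc had 3.88, 11.8 and 16.8 CPM. For Pgk2 the step from caput to corpus was called at 3 months (log2 1.80 ± 0.45, edgeR adjusted p = 0.00196) and the step from corpus to cauda was not (1.0 ± 0.40, adjusted p = 0.068), although every cauda library (4.29 to 6.84% of the testis mean) stood above every corpus library (2.45 to 3.04%), as for 22.2% of all genes in either direction. That step was called without efferent ductule replicate 3 (edgeR adjusted p = 0.0274) or replicate number 3 (adjusted p = 0.0357). At 21 months both steps were called (1.21 ± 0.25, adjusted p = 0.000289, and 0.95 ± 0.24, adjusted p = 0.00298). For Ldhc no step between neighbours below the testis in the order of levels was called, apart from caput over vas deferens at 3 months (2.24 ± 0.66, adjusted p = 0.00608). Pdha2 stayed below 1.6 CPM in every library of these 3 regions and of the vas deferens.

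Relative to the testis, the 3-month cauda retained 5.87% of the level of Pgk2 and 3.52% of that of Gapdhs, but 1.25% of Eno4, 0.677% of Ldhc and 0.411% of Pdha2. Spermatid markers in the same libraries ranged from 19.96% for Odf1 and 11.8% for Oaz3 and Tssk6, all above the highest isozyme, through 5.33% for Prm2 to 0.77% for Tnp1. The 10 spermatid markers summed to 445 to 831 CPM in the 3-month cauda, 319 to 390 CPM in the corpus, 149 to 207 CPM in the caput and 10.8 to 121 CPM in the vas deferens, against 10938 to 12803 CPM in the testis. In bulk tissue, fewer cells of a type and less RNA per cell cannot be told apart.

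Among the 3-month efferent ductules, replicate 3 stood apart for the germ cell forms. It had 36.9 CPM of Ldhc (others 3.01 to 7.53), 33.1 of Gapdhs (4.26 to 5.62), 10.4 of Pgk2 (1.21 to 2.76) and 1.92 of Pdha2 (0.101 to 0.478). Its 10 spermatid markers summed to 208 CPM (others 45.8 to 51.3) and its 6 spermatocyte markers to 11.99 CPM (others 2.03 to 3.08). Eno4 in the same library, 56.6 CPM, was near the others. Without this library the testis remained higher for all 5 germ cell forms.

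The somatic forms had other orders. At 3 months Pgk1 was highest in the cauda (21.2 ± 2.19 CPM), 0.81 ± 0.20 above the corpus on the log2 scale (edgeR adjusted p = 0.00315). Pdha1 was highest in the cauda too (163 ± 22.0 CPM), 0.34 ± 0.08 above the initial segment (adjusted p = 0.000844) although their libraries overlapped. Gapdh was level between cauda and efferent ductules (33.3 CPM in each, adjusted p of 1). Ldha was lowest in the initial segment (59.5 ± 8.74 CPM), 0.95 ± 0.15 below the caput (adjusted p = 9.91e-06).

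By likeness of pattern over the 14 group means, the nearest of 24945 other genes to Ldhc were Adam3, Ankrd36 and Mroh2b (Pearson r of 0.998 to 0.999 on log2 CPM + 1), to Gapdhs Fam71f2, Gsg1 and Akap4, and to Pgk2 Crisp2, 1700009N14Rik and 4933415F23Rik. These are descriptions across group means that share mice and libraries. The nearest to Eno4 were Ttc16, Lrrc36 and Dynlrb2 (0.998 to 0.999), and to Pdha2 AY702103, Trpd52l3 and Sel1l2. The pattern of Pdha2 was common, with 3000 genes at an r of at least 0.99, against 54 for Ldhc, 34 for Eno4, 28 for Gapdhs and 9 for Pgk2. Of the somatic forms Pdha1 was nearest to Mpzl2, Fgd4 and Hoxb4, Gapdh to Shld1, BC037032 and Mthfd1, Eno1 to Gpsm1, Bik and Ccs, Ldha to Grik5, Gm4419 and Cabcoco1, and Pgk1 to Gm15148, Snora73b and Il15, none of which reached 0.99.

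Of 40 further somatic enzymes and transporters of the route, 17 were higher and 18 lower in the 3-month testis (17 and 19 at 21 months), where 44.1% of all genes were called higher and 33.8% lower. Their median log2 difference was −0.20 at 3 months, against 0.13 for all genes. Of those higher in the testis, the strongest was Pgam2, a phosphoglycerate mutase, with 495 CPM in the testis and a mean of 3.97 elsewhere (log2 7.26 ± 0.21, edgeR adjusted p = 8.38e-24). The lactate transporter Slc16a7 (log2 5.99), the glucose transporter Slc2a3 (4.49) and the hexokinase Hk1 (3.83) were also higher, with 562, 1215 and 1466 CPM in the testis. The genes named as lower and those of the complex below were chosen after their values were seen. Lower were Ldhd, a D-lactate dehydrogenase (−5.96), the insulin-regulated transporter Slc2a4 (−4.54), Pfkl, the liver phosphofructokinase (−2.80), and Hk2 (−1.77). Pklr, the liver pyruvate kinase, had no count in the testis libraries of 3 months and 21.6 CPM on average elsewhere, most of it from the efferent ductules (111 CPM). Within the pyruvate dehydrogenase complex, Pdhb (log2 1.33), Pdhx (1.60), Dlat (1.29) and Dld (0.71) were all higher in the testis.

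Of 7 further germ cell genes listed for this or adjoining steps Mpc1l was not analysed here, and the other 6 were all higher in the 3-month testis, by log2 6.17 to 8.66, where 44.1% of all genes were called higher. They are the aldolase retrogenes Aldoart1 (116 CPM in the testis) and Aldoart2 (285), the lactate dehydrogenase-like Ldhal6b (535), the glycerol kinases Gk2 (521) and Gykl1 (463) and the hexose transporter Slc2a5 (644). Their means outside the testis were 1.66 to 14.9 CPM.

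Age was tested within each region by edgeR, 21 months minus 3 months, on the 8 libraries of that region. In the testis 1 of the 10 genes was called, where 0.563% of all genes were. Ldhc fell from 2477 ± 43.0 to 2152 ± 59.99 CPM, by 0.20 ± 0.05 on the log2 scale (edgeR adjusted p = 0.0354), and every 3-month testis stood above every 21-month testis, where 6.3% of all genes tested had no overlap in either direction. With the study's rule for age, which asks for 1.5-fold and a p under 0.05 before adjustment, none of the 10 genes was called, against 2.71% of all genes. Leaving out 3-month replicates 1 or 2 or 21-month replicates 1, 2 or 3 ended the call, with adjusted p of 0.0619 to 0.156, and it held without any of the other 3 libraries. Pgk2 went from 672 ± 22.4 to 588 ± 27.3 CPM (log2 −0.19 ± 0.05, adjusted p = 0.1), and was called lower by DESeq2, with library size alone and without a count filter. Gapdhs (log2 0.02 ± 0.05, adjusted p = 0.928), Eno4 (−0.04 ± 0.06, adjusted p = 0.891) and Pdha2 (−0.09 ± 0.06, adjusted p = 0.602) were not called, and the 10 spermatid markers had a median of 0.04 with 0 called. Of the markers of other cells Kit, Star and Cd68 (of spermatogonia, Leydig cells and macrophages) were higher and Cyp11a1 and Myh11 (of Leydig cells and smooth muscle) lower, and their part in the Ldhc change was not tested. The within-library ratio of Pdha2 to Pdha1 was lower at 21 months by 0.34 on the log2 scale (exact permutation p = 0.0286, adjusted over 35 tests p = 0.2).

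The largest age differences were in the initial segment, where 4 of the 10 genes fell and none rose, against 3.01% of all genes called lower. Ldhc was at 7.93, 16.3, 5.41 and 5.74 CPM at 3 months and at 2.23, 1.27, 0.334 and 1.03 CPM at 21 months. Gapdhs was at 5.07, 9.15, 3.97 and 6.71 CPM and then at 1.82, 0.705, 1.34 and 1.87 CPM. Pgk2 was at 3.00, 5.14, 1.38 and 2.65 CPM and then at 0.411, 0.564, 0.735 and 0.515 CPM. For each of the 3 genes every 3-month library stood above every 21-month library, as it did for 18.5% of all genes in either direction. The log2 changes were −2.68 ± 0.42 for Ldhc (edgeR adjusted p = 0.00183), −1.96 ± 0.30 for Gapdhs (adjusted p = 0.00148) and −2.29 ± 0.38 for Pgk2 (adjusted p = 0.00289).

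Pdha2 in the initial segment was near its limit of detection, at 0.214, 1.20, 0.361 and 0.387 CPM at 3 months and 0.0587, 0, 0 and 0.386 CPM at 21 months (log2 −2.05 ± 0.86, edgeR adjusted p = 0.203). With the study's rule 4 of the 10 genes also fell here, Pdha2 in place of Ldha, against 11.5% of all genes called in either direction. Eno4 stood apart from the other germ cell forms, with 3.82 ± 1.31 and 3.63 ± 2.21 CPM (log2 0.07 ± 0.36, adjusted p = 0.956). Among the somatic forms Ldha fell from 59.5 ± 8.74 to 37.8 ± 6.32 CPM (log2 −0.52 ± 0.11, adjusted p = 0.0143), a call lost without 3-month replicate 3 or 21-month replicates 2 or 4 (adjusted p of 0.054 to 0.0588). Pgk1 went from 5.43 ± 0.456 to 3.31 ± 0.75 CPM (log2 −0.57 ± 0.19, adjusted p = 0.101), and Gapdh, Eno1 and Pdha1 lay between −0.12 and 0.07.

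Other germ cell transcripts in the same libraries moved with them. Of 10 spermatid markers 9 fell with age, all but Acrv1, and their sum went from 38.9 to 129 CPM at 3 months to 12.6 to 31.2 CPM at 21 months. Without 3-month replicate 2 the count was 5, and over all alternatives it was 5 to 10. The 3-month library with the most Ldhc, Gapdhs and Pgk2, replicate 2, also had the highest marker sum, 129 CPM. Of 6 spermatocyte markers 1, Piwil1, fell, and the median log2 change of the list was −1.12. Their sum (21.0 to 34.2 CPM at 3 months, 20.2 to 33.1 CPM at 21 months) was mostly Spo11, at 24.4 CPM on average at both ages, or 36.7% and 37.0% of its testis level. No marker of either list was at 0 in all libraries of the region. Of the 6 further germ cell genes of the route 5 fell, Aldoart2 (log2 −3.05), Gykl1 (−2.76), Gk2 (−2.38), Aldoart1 (−2.27) and Ldhal6b (−1.07), as did Pgam2 (−2.32) and Slc16a7 (−0.79), both testis-enriched here. These were among 3 of the 40 further somatic genes that fell, with Hk1 (−0.27), and the median over the 40 was −0.02. The count of 5 was 3 without 3-month replicate 1 or 21-month replicate 2 and 2 without 3-month replicate 2. Smooth muscle markers (2 of 4 lower) summed to 600.2 to 935 CPM and then to 464 to 544 CPM, and T cell markers (2 of 4 higher) to 3.16 to 3.50 CPM and then to 4.19 to 6.42 CPM. One gene each was lower among the adipocyte (Cidec), Leydig (Hsd3b1) and spermatogonial (Dazl) markers, and higher among the macrophage (C1qa) and principal cell (Crisp1) markers. The part of these cells and of the germ cell content of the libraries in these changes was not tested.

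**Figure D4:**
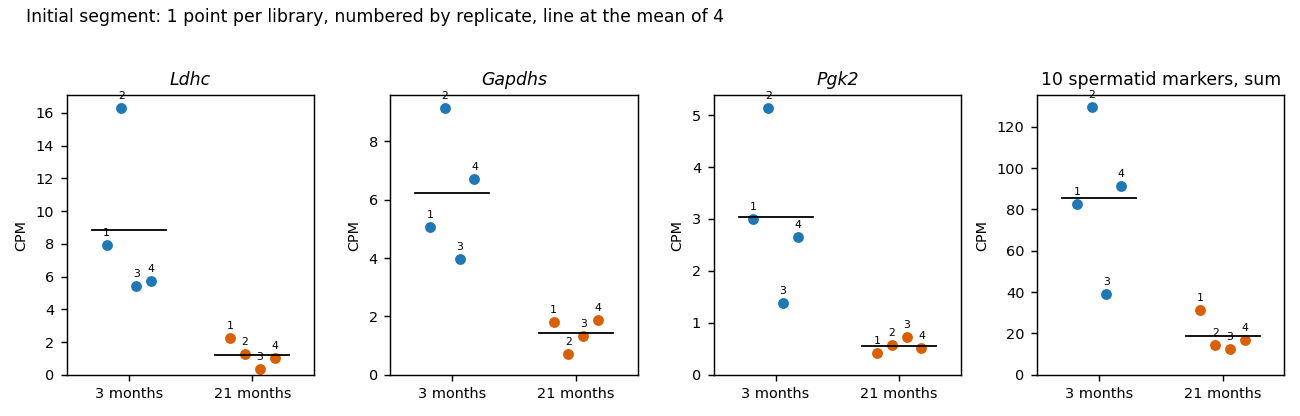
CPM of Ldhc, Gapdhs, Pgk2 and the sum of 10 spermatid markers in the initial segment, 1 point per library labelled by replicate number, with a line at the mean of 4. For all 3 genes the 3-month libraries lay above the 21-month libraries, and replicate 2 of the 3-month group was the highest in each panel (16.3, 9.15 and 5.14 CPM, marker sum 129 CPM).

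Within libraries of the initial segment, the ratio to the somatic partner fell for the same genes, by 2.29 for Ldhc, 2.03 for Gapdhs and 1.54 for Pgk2 on the log2 scale. Each had an exact permutation p = 0.0286 (two-sided), the smallest that 4 against 4 allow. Over the 35 ratio tests with age, 5 reached that value and none passed after adjustment (adjusted p = 0.2). The others were Gapdhs to Gapdh in the caput (−1.01) and Pdha2 to Pdha1 in the testis.

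In the caput 2 of the 10 genes rose with age, where 3.09% of all genes were called higher. Pgk1 was at 8.54, 3.75, 4.82 and 4.09 CPM at 3 months and at 13.1, 9.30, 12.6 and 12.6 CPM at 21 months (log2 1.10 ± 0.21, edgeR adjusted p = 0.00969). Pgk2 was at 5.60, 2.41, 5.81 and 5.79 CPM and then at 9.54, 9.62, 8.32 and 7.11 CPM (log2 0.74 ± 0.20, adjusted p = 0.0415). For either gene the lowest 21-month value lay above the highest 3-month value, and 15.6% of all genes had no overlap in either direction. The 3-month replicate 2 was lowest for both and was the library in which Gm42418, a gene overlapping ribosomal RNA repeats, took 49.7% of counts against 6.54 to 9.49% in the others. Without it both genes were still called, while leaving out any of 6 other libraries ended the call for Pgk2 (adjusted p of 0.059 to 0.127). Of the 40 further somatic genes 2 rose in the caput, Slc2a3 (log2 0.74) and the lactate transporter Slc16a1 (0.43), and 2 fell, the pyruvate dehydrogenase kinase Pdk2 (−0.71) and Gpi1 (−0.36). Of all 25322 genes tested there 1280 were called lower. Over the alternatives 0 to 7 of the 40 rose and 0 to 7 fell. Of the spermatid markers there 2, Prm1 and Prm2, fell (0 to 5 over the alternatives), with sums of 149 to 207 CPM and then 123 to 134 CPM. All 4 smooth muscle markers fell, with sums of 844 to 1124 CPM and then 588 to 665 CPM. Macrophage markers (2 of 4 higher) summed to 69.4 to 85.3 CPM and then to 83.0 to 96.9 CPM, T cell markers (1 of 4 higher) to 1.51 to 3.21 CPM and then to 3.69 to 7.18 CPM, and red blood cell markers (1 of 4 higher) to 7.36 to 15.1 CPM and then to 14.7 to 67.2 CPM. Sox9, Cdh5 and Myh1, of the Sertoli, endothelial and skeletal muscle markers, were lower. The part of these cells in the changes was not tested.

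In the efferent ductules 1 of the 10 genes rose, against 4% of all genes called higher. Ldha was at 202, 190, 214 and 159 CPM at 3 months and at 299, 225, 242 and 406 CPM at 21 months, without overlap (17.4% of all genes). The change was 0.70 ± 0.19 on the log2 scale (edgeR adjusted p = 0.049), with the highest values in 21-month replicates 4 and 1. It was called only while both of those were kept, and leaving out any 3-month library also ended the call (adjusted p of 0.0713 to 0.152 over these 6 libraries). Eno1 had a log2 change of 0.36 ± 0.13 (adjusted p = 0.12), called by DESeq2. No germ cell form was called there.

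Other glycolytic genes moved with Ldha in the efferent ductules: of the 40 further somatic genes 11 rose and none fell. Among them were Slc16a3, a lactate exporter (log2 1.13), Hk3 (0.96), the glucose transporter Slc2a1 (0.91), Aldoa (0.85), Pfkl (0.82), Pgam1 (0.79), Pkm (0.76) and Aldoc (0.71). The count was 5 without 3-month replicate 1, 3 without 3-month replicate 3 or 4, and 17 by DESeq2, which also called 1 lower. Scaling bore on it as well: with library size alone 4 rose and 6 fell, when 405 genes of all were called higher and 4883 lower, against 1039 and 774 with TMM. Red blood cell markers (3 of 4 higher) summed to 15.7 to 27.4 CPM at 3 months and to 58.7, 34.0, 36.7 and 105 CPM at 21 months, in the same order of libraries as Ldha. Epididymal principal cell markers (3 of 6 higher) summed to 10.5 to 23.8 CPM at 3 months and to 3.68, 654, 355 and 6.19 CPM at 21 months, so that replicates 2 and 3 stood apart. Macrophage markers (3 of 4 higher) summed to 128 to 139 CPM and then to 197 to 234 CPM, and T cell markers (2 of 4 higher) to 1.62 to 2.13 CPM and then to 4.64 to 7.35 CPM. Smooth muscle markers (2 of 4 higher) summed to 499.6 to 549.8 CPM and then to 522 to 670.2 CPM, and adipocyte markers (1 of 4 lower) to 300.2 to 474 CPM and then to 79.7 to 261 CPM. Of the efferent ductule markers Foxj1 was higher and Lrp2 lower, and of the spermatogonial markers Uchl1 was higher. The part of these cells in the changes was not tested.

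In the vas deferens 1 of the 10 genes rose, where 11.4% of all genes were called higher. Gapdh was at 11.2, 14.1, 15.6 and 12.8 CPM at 3 months and at 16.4, 22.0, 18.2 and 22.9 CPM at 21 months (log2 0.51 ± 0.14, edgeR adjusted p = 0.0271), without overlap, as for 24.2% of all genes. The call was lost without 3-month replicates 1, 2 or 4 or 21-month replicate 2 (adjusted p of 0.0545 to 0.0797), and with the pseudogene copies added the change was 0.26 (adjusted p = 0.039). With the study's rule none of the 10 genes was called, against 17.8% of all genes. Ldhc there ranged from 0.317 to 2.06 CPM and then from 0.502 to 7.14 CPM (log2 1.47 ± 0.81, adjusted p = 0.231). Of the 40 further genes 7 rose, among them Hk2 (log2 1.17, from 72.7 to 170 CPM) and Aldoc (0.70), and 3 fell, where 8.47% of all genes were called lower. In the same libraries T cell markers (4 of 4 higher) summed to 1.69 to 3.41 CPM and then to 9.51 to 28.9 CPM, and smooth muscle markers (3 of 4 higher) to 9564 to 10249 CPM and then to 10773 to 17320 CPM. Of 7 skeletal muscle markers 3 were higher, with sums of 219 to 300 CPM and then 135 to 279 CPM. Macrophage markers (2 of 4 higher) summed to 81.4 to 110.1 CPM and then to 86.5 to 129 CPM. Of the efferent ductule markers Foxj1 and Slc9a3 were higher and Aqp1 lower. Single markers of principal cells (Adam28), spermatids (Tnp2), Sertoli cells (Sox9) and spermatogonia (Uchl1) were higher, and those of endothelium (Kdr) and of the vas deferens itself (Akr1b7) lower. The part of these cells in the changes was not tested.

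In the corpus and the cauda none of the 10 genes was called by edgeR or by DESeq2, against 2.97% and 0.128% of all genes by edgeR. At an unadjusted p under 0.05 there was 1 in each, Pdha1 in the corpus (log2 −0.20 ± 0.08) and Ldha in the cauda (−0.55 ± 0.23). The highest cauda value of Ldha, 297 CPM in 3-month replicate 3 (others 166 to 189), came with a sum of 4 macrophage markers of 904 CPM in that library (others 149 to 160). By the study's rule for age, 7 of 7 skeletal muscle, 3 of 4 smooth muscle and 3 of 4 adipocyte markers were lower in the cauda. So were 2 of 4 macrophage and 2 of 3 endothelial markers, and no marker was called there at an adjusted p under 0.05. The part of all these cells in the Ldha values was not tested. Of the 38 further genes tested in the corpus 3 rose, among them Pklr (log2 1.27) and Aldoc (0.72), and Ldhb fell (−0.58), while no such gene was called in the cauda. Over the alternatives 1 to 5 of these genes rose in the corpus and 0 to 1 fell. In the corpus, red blood cell markers (3 of 4 higher) summed to 59.9 to 79.5 CPM at 3 months and to 92.4 to 408 CPM at 21 months, and Pklr is known to encode the red cell pyruvate kinase as well. Myh11, Cidec and Crisp1, of the smooth muscle, adipocyte and principal cell markers, were lower there. The part of these cells in the changes was not tested. Cauda 21-month replicate 2 had the lowest Gapdh (12.05 CPM, others 29.2 to 34.5) and Eno1 (53.9 CPM, others 164 to 204) and the highest Pdha1 (236 CPM, others 160 to 171) of its group.

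**Figure D5:**
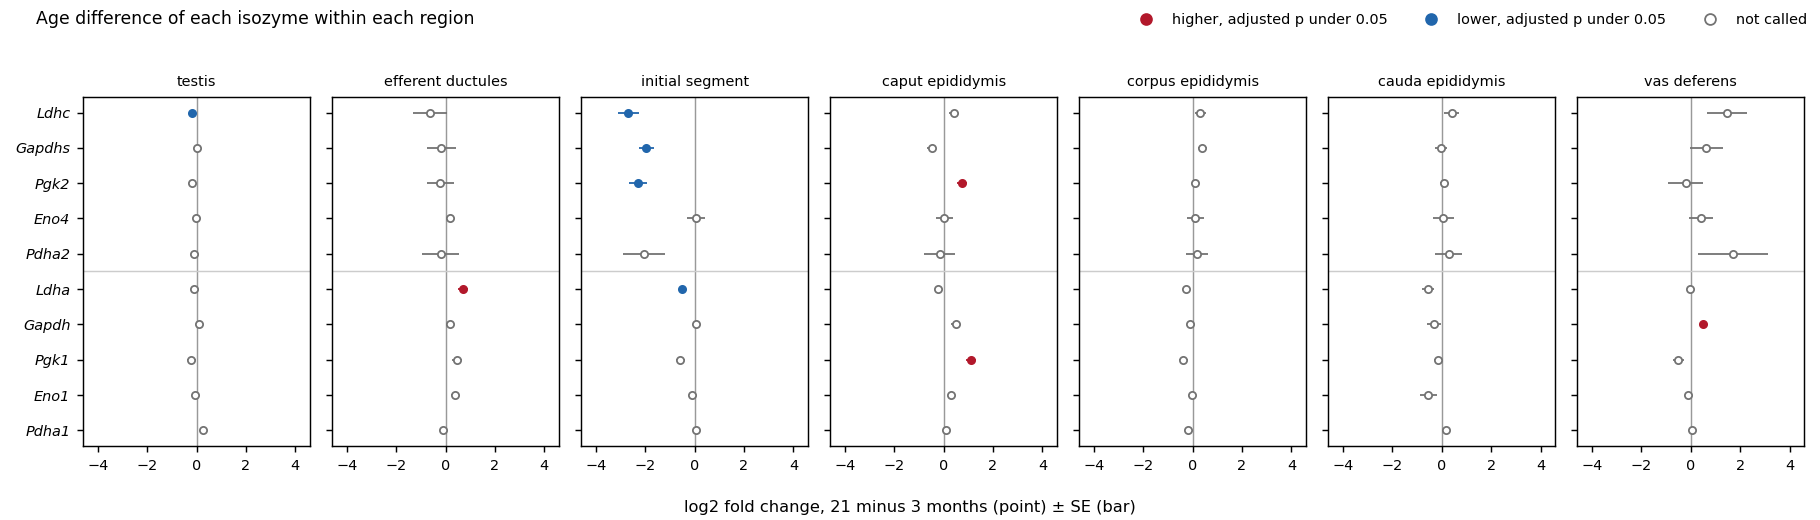
Log2 fold change with age (21 minus 3 months) of each gene in each region, point ± SE from edgeR, filled blue where lower and red where higher at an adjusted p under 0.05, open where not called. The filled points were Ldhc in the testis, Ldhc, Gapdhs, Pgk2 and Ldha in the initial segment (lower), Ldha in the efferent ductules, Pgk2 and Pgk1 in the caput and Gapdh in the vas deferens (higher).

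Whether the age effect differed among regions was tested directly in a fit of all 56 libraries. The age effect in the testis did not differ from the mean of the other 6 regions for any of the 10 genes by edgeR or DESeq2, where 0.0649% of all genes were called by edgeR, and at an unadjusted p under 0.05 there was 1, Pdha1. When any difference among the 7 regions was allowed, 4 of the 10 were called by edgeR against 20.2% of all genes: Pgk1 (adjusted p = 0.000103), Ldha (0.00085), Ldhc (0.0056) and Pgk2 (0.0477). Ldhc and Pgk2 had their lowest age effect in the initial segment, and Pgk1 its lowest there and its highest in the caput. In this fit Ldha had its highest in the efferent ductules (log2 0.61) and its lowest in the initial segment (−0.66), followed by the cauda (−0.54).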

How the data were processed

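RNA-seq of 7 regions of the male tract at 3 and 21 months (4 libraries each) was analysed from the deposited table of raw counts per gene, which the authors made by trimming, alignment and counting with cutadapt, HISAT2 and HTSeq on mm10 (GRCm38), per the labels. Versions, annotation, strand setting and the handling of reads with several matches are not given in the sources used here. The libraries were made with a stranded total RNA kit and read as paired ends of 150 bases. Total counts ranged from 11125279 to 20561967 per library.

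Genes with at least 10 counts in total were tested with edgeR 4.0.16 in R 4.3.3 (TMM factors, quasi-likelihood F-test, Benjamini-Hochberg adjusted p under 0.05 called), on the 28 libraries of an age for regions, on the 8 libraries of a region for age and on all 56 for the difference of age effects. Levels are CPM with TMM factors over the 56 libraries, per kb of the principal transcript where genes are compared. Isozyme ratios were tested by exact two-sided permutation (scipy 1.17.1) after adding 0.5 counts. P-values measure the spread between these libraries, since the replicate number is not stated to mark the mouse. Gene symbols came from GENCODE vM21 and were found for 53274 of 53379 genes. Motifs were searched on both strands.

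The members, the gene lists and the tests were chosen with earlier results of these data known. All 10 members were named. Of the other pathway genes, those called with age, changed at least 1.5-fold and at 1 CPM or more at either age were named, with those higher in the testis and the 3 genes nearest to each member in pattern; an item of the pathway list is not reported here. Alternatives were DESeq2 1.42.0 and its size factors, library size alone, other count filters, other added counts (0.1 and 5), a replicate block, 1 fit of all libraries, the study's rule for age (unadjusted p under 0.05 and 1.5-fold) and leaving out each library. Union exon lengths, added pseudogene copies and the omission of 1 caput library were chosen after seeing the data. On simulated counts edgeR recovered 100% of 4-fold changes, and of 2-fold changes 67% for age in the caput (24850 genes), 90% for the testis against other regions (33985 genes) and 53% for the difference of age effects (36491 genes). The simulation gave every gene the same dispersion and no group differences besides the planted changes. Changes were planted only in genes above a minimum expected count, so these rates do not cover members with few counts or wide spread.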

Additional observations from a re-analysis of the deposited data

Results flagged for a closer look

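Of 140 groups of 4 libraries (10 genes in 14 groups), 14 had a library far from the other 3, by a limit set so that about 1 in 20 groups of independent normal values pass it. The groups share libraries and some counts are low, and how often chance passes the limit in these data was not measured. Replicate 3 of the 3-month efferent ductules was far above the others for Ldhc (36.9 CPM, others 3.01 to 7.53), Gapdhs (33.1, others 4.26 to 5.62) and Pgk2 (10.4, others 1.21 to 2.76). In the vas deferens, Ldhc was high in 21-month replicate 3 (7.14 CPM, others 0.502 to 1.26), as was Pdha2 (0.731, others 0 to 0.0571), and Pdha2 was high in 3-month replicate 2 (0.25, others 0). Pdha2 was also high in initial segment 21-month replicate 4 (0.386 CPM, others 0 to 0.0587). Pgk2 was low in testis 21-month replicate 1 (547 CPM, others 600 to 604) and in caput 3-month replicate 2 (2.41 CPM, others 5.60 to 5.81).

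Of the somatic forms, Ldha was low in initial segment 3-month replicate 1 (46.5 CPM, others 62.5 to 64.7) and high in cauda 3-month replicate 3 (297 CPM, others 166 to 189). Pgk1 was low in caput 21-month replicate 2 (9.30 CPM, others 12.6 to 13.1). Pdha1 was low in corpus 3-month replicate 1 (86.6 CPM, others 94.1 to 94.6) and high in cauda 21-month replicate 2 (236 CPM, others 160 to 171).

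The age effect differed among the 7 regions by edgeR for Ldhc (adjusted p = 0.0056), Pgk2 (adjusted p = 0.0477), Ldha (adjusted p = 0.00085) and Pgk1 (adjusted p = 0.000103).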

How the results depend on the processing

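With pseudogene copies added, Gapdh turned from lower to higher in the testis (log2 1.10 at 3 months, 0.90 at 21 months). The counts of members called with age moved as follows. In the testis, 1 fell, but 2 with library size alone, no count filter or DESeq2, 0 with edgeR's expression filter, the study's rule or 1 fit of 56 libraries, and 0 to 1 without each library in turn. In the efferent ductules, 1 rose, but 0 with library size alone or pseudogene copies added and 2 with DESeq2, and 0 to 1 without each library in turn, while 1 fell with library size alone. In the caput, 2 rose, but 1 with library size alone or 1 fit of 56 libraries, with 1 to 4 rising and 0 to 1 falling without each library in turn, the 4 without 3-month replicate 1. In the cauda 1 fell in 1 fit of 56 libraries. In the vas deferens, 1 rose, but 0 with the study's rule and 0 to 1 without each library in turn. In the initial segment 4 fell, as under every other alternative run, and 3 to 5 without each library in turn. The causes of these moves were not tested. Without a replicate number, 0 of 60 ratio comparisons could pass, since 3 against 3 libraries cannot reach 0.05.

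Libraries of the same replicate number were not alike in general: the mean correlation of deviations was 0.0181 for the same number between regions, where all 4 passed 0.1 in 1 of 42 pairs of groups (3-month corpus and cauda), and 0.0238 between ages, where this held in 0 of 7. By pair of regions the means ran from −0.133 (3-month efferent ductules and initial segment) to 0.207 (3-month caput and corpus). The corpus and cauda had 0.146 at 3 months and 0.148 at 21 months. With 4 libraries per group, these values cannot tell whether the number marks the mouse. With the replicate block 2 members fell in the testis and 0 rose in the efferent ductules, where 7 of the 40 further genes rose with it against 11. For the 3-month step from corpus to cauda the block gave an adjusted p of 0.0604 for Pgk2 (0.068 without it) and 0.0483 for Gapdhs (0.0637). For Eno4 between the 3-month testis and efferent ductules it gave 0.0498 (0.0559).

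DESeq2 size factors moved the median of all genes in the testis comparison from 0.13 to 0.53 at 3 months and from 0.10 to 0.53 at 21 months, and library size alone moved the age median of all genes: to −0.38 (efferent ductules), 0.19 (caput) and −0.17 (corpus). Genes higher and lower with age by TMM and by library size alone numbered 106 and 63 against 99 and 90 in the testis, 373 and 365 against 154 and 350 in the corpus, 782 and 1280 against 361 and 528 in the caput and 2875 and 2135 against 2459 and 2602 in the vas deferens. For efferent ductules DESeq2 called 2111 and 1462 genes, for the corpus 632 and 573, for the cauda 191 and 300 (18 and 15 by edgeR) and 77 and 42 for the difference of age effects (19 and 5). Levels under 1 CPM, as of Pdha2 outside the testis, rest on few counts.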
